A study of Mus musculus with 4 samples.

Results

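Lmo1, Lmo3, Lmo4, Ldb1 and Ldb2, genes of LIM-only proteins and of the LIM domain-binding proteins they pair with, were followed across the cells of an embryonic mouse brain. The members were taken by gene symbol, 5 of the 27998 genes of the Illumina matrix, together with every isoform listed under these symbols in the Nanopore matrix, which were 19 of 20834 isoforms in the 190 cell aliquot and 21 of 30724 in the 951 cell aliquot, 22 in either. The tissue, from 1 C57BL/6 mouse of embryonic day 18, held cortex, hippocampus and the sub ventricular zone in 1 suspension, and the labels give no treatment and no allele beyond the strain. Droplets of 1 run were divided into aliquots of 190 and 951 cells, and both aliquots were read by Illumina short reads, which count the 3′ ends of genes, and by full-length Nanopore reads, which identify isoforms. Both aliquots share the mouse, the suspension and the droplet run but hold different cells. The spread between them is therefore that of technique and of the cells drawn. P-values given for them do not cover the spread between animals.

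LIM-only (LMO) proteins consist of little more than a pair of LIM domains and do not bind DNA themselves. LDB proteins dimerise and bind the LIM domains both of LMO proteins and of LIM-homeodomain factors such as Lhx2, Lhx6 and Isl1, so that the complexes bring DNA-bound factors together, and LMO proteins can compete with LIM-homeodomain factors for LDB. Single-stranded DNA-binding proteins of the Ssbp family protect LDB from degradation, bHLH E proteins such as Tcf3 and Tcf12 are DNA-bound partners, and Lmo4 is known in the developing cortex for its part in the identity of areas and of projection neurons.

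After cells with fewer than 1400 detected genes were left out, 186 and 935 cells remained, 1121 in all, with 1809081 and 8295650 Illumina UMIs (unique molecular identifiers, each standing for 1 captured RNA molecule) and 993220 and 4889148 Nanopore UMIs assigned to an isoform, in the 190 and the 951 cell aliquot. Values are given in this order below. The aliquots shared 13 cell barcodes, 12 of them kept in both, and 11 of these fell into the same class in both aliquots. Cells were grouped by clustering without the members, and the 6 classes with enough cells, each named "-like" from its markers, were radial glia-like (20 and 87 cells), cycling radial glia-like (24 and 94), immature glutamatergic-like (47 and 234), mature glutamatergic-like (43 and 238), immature GABAergic-like (31 and 147) and mature GABAergic-like cells (17 and 123). The marker list of the cycling class held proliferation genes alone, so its name does not show that these cells are radial glia. By marker score, the next class of that cluster was intermediate progenitor. Cajal-Retzius-like cells were 4 and 12, and no cluster of intermediate progenitor-like cells formed in this clustering. By the marker rule such a cluster did form when all variable genes were used (10 and 40 cells) and at a higher clustering resolution of 1.2 (17 and 70), the latter led by immune genes. In the 6 classes these cells were not set apart. Summed haemoglobin RNA of red blood cells (4 genes) lay between 547 and 743 CPM (UMI counts per 1000000 UMIs of a class and aliquot) in all 6 classes and both aliquots, whereas the 5 microglial markers, at 242 CPM in the radial glia-like cells of the 951 cell aliquot and at 0 in those of the 190 cell aliquot, lay at 11.7 CPM or less in the other classes. The 5 endothelial and mural markers had 16.2 and 75.1 CPM in radial glia-like cells and at most 14.8 in the others. The 4 oligodendrocyte precursor markers had 72.9 and 62.2 CPM in radial glia-like and 135 and 158 in cycling radial glia-like cells, against at most 4.90 in the neuron classes. What these RNAs contribute to the member levels was not tested.

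The sequences that carry the isoform results are shown first, as isoforms of Lmo4 and Lmo1 differ in their first exon and those of Ldb2 in 6 bases. All 5 genes lie on the minus strand (GRCm38, Gencode vM21), with isoforms covering chr7:109138572-109175207 for Lmo1, chr6:138364196-138422999 for Lmo3, chr3:144188530-144205220 for Lmo4, chr19:46032593-46045214 for Ldb1 and chr5:44472132-44799680 for Ldb2. The 250 bases upstream of the RefSeq starts (GRCm38.p6) nearest to the leading Lmo4 isoforms lie at chr3:144205256-144205505 for Lmo4-201, 35 bases from the isoform's own start, and at chr3:144202397-144202646 for Lmo4-203, in the first intron of Lmo4-201. Capitals mark the E-box CANNTG, the letters bHLH factors bind, which reads the same on both strands.
Lmo4-201 promoter: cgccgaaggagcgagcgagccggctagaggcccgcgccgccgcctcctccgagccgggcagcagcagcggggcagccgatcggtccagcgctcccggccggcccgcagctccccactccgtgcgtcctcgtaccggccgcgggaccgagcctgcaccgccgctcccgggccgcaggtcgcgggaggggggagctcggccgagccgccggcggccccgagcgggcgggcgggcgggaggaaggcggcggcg
Lmo4-203 promoter: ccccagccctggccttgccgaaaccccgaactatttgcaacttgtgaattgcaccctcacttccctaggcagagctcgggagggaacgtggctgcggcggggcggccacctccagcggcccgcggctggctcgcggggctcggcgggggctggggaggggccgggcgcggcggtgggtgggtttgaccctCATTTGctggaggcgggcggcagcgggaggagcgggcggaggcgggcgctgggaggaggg
The Lmo4-201 window held no CANNTG and the Lmo4-203 window 1, where 66.2% of all 32851 RefSeq promoter windows of this length hold at least 1. Neither held TAATTA, a homeodomain motif present in 4.84% of the windows. The GC content was 82.4% and 73.6%, at the percentiles 99.5 and 95.1 of all windows. A match of letters is no binding site.

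The first exons of Lmo1-202 and Lmo1-201 carry different starts of the coding sequence, shown from the start codon on, with the coding bases of the first exon in capitals and the shared second exon in lower case. The Lmo1-201 bases lie at chr7:109169983-109170007 and the Lmo1-202 bases at chr7:109174938-109174959.
Lmo1-201 start of coding sequence: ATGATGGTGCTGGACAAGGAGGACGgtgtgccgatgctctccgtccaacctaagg
Lmo1-202 start of coding sequence: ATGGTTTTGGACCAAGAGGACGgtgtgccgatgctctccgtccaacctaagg
The first exon gave 25 coding bases in Lmo1-201 and 22 in Lmo1-202, and the coding sequences were 468 and 465 bases long.

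Ldb2-201 and Ldb2-205 differ in the end of exon 7, at chr5:44479093-44479244 in Ldb2-201 and chr5:44479099-44479244 in Ldb2-205. The 30 bases on each side of the junction of exons 7 and 8 are shown, with the extra bases in capitals.
Ldb2-201 junction: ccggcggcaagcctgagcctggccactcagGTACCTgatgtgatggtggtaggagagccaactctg
Ldb2-205 junction: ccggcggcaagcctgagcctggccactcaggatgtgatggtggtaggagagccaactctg
The 6 bases exceed the 2 bases that the authors tolerated at an exon boundary when a UMI was assigned to an isoform, and 6 of the 7 splice junctions of each isoform were shared.

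Each LMO gene had its own distribution over the classes. Levels are given as Illumina CPM, with exact 95% Poisson intervals that cover counting error only, and each gene is compared between classes and not with the other genes. The members were chosen with results of these data known and the classes come from the same counts, so the levels are a description without a test.

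**Figure D1:**
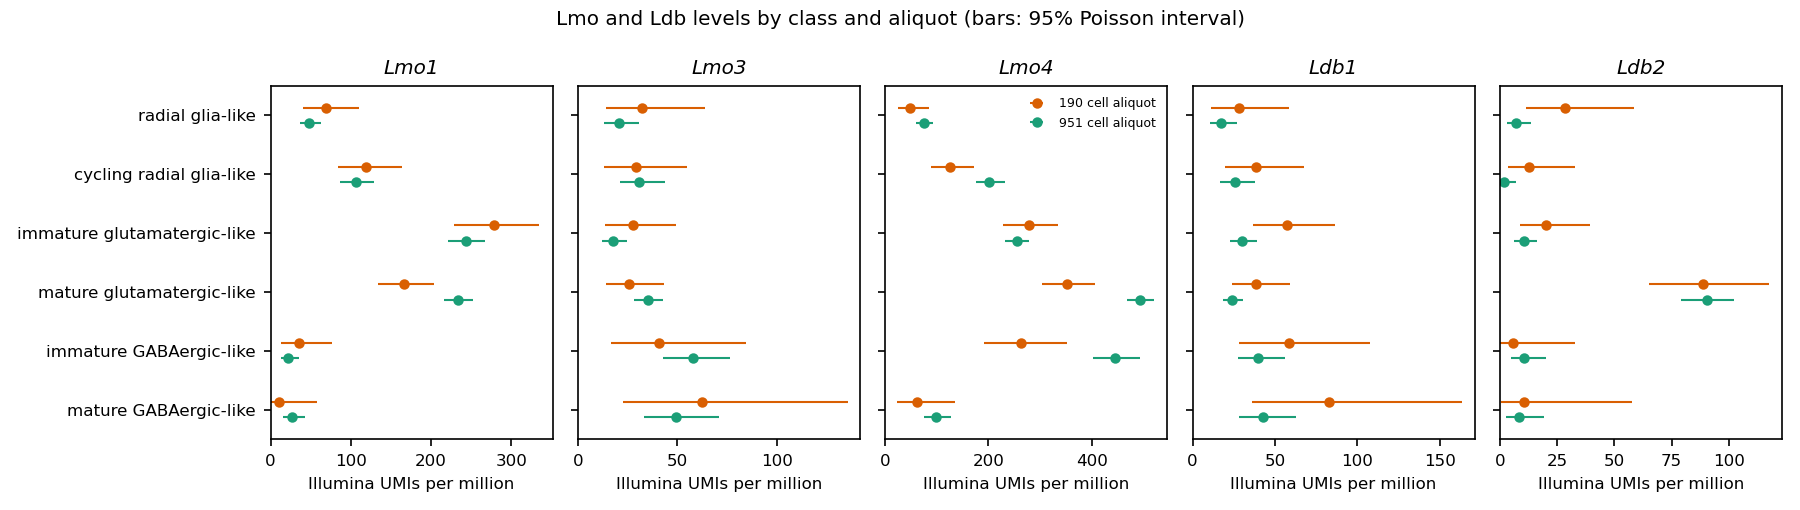
Illumina level of each member (x axis, CPM) in the 6 classes, with 1 point per aliquot and 95% Poisson intervals as bars. Lmo1 lay highest in both glutamatergic-like classes, Ldb2 in mature glutamatergic-like cells, and Lmo4 in both glutamatergic-like classes and immature GABAergic-like cells.

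Lmo1, a LIM-only gene known as an oncogene in T-cell leukaemia, was highest in the glutamatergic-like classes. Its level was 278 and 243 CPM in immature glutamatergic-like cells, 166 and 234 in mature glutamatergic-like, 119 and 106 in cycling radial glia-like and 68.9 and 48.4 in radial glia-like cells. In immature GABAergic-like cells it was 35.1 and 22.3, from 6 and 19 UMIs, and in mature GABAergic-like cells 10.4 and 26.4, from 1 and 16 UMIs. The aliquot values of neighbouring classes in this order did not overlap down to the immature GABAergic-like cells, while those of both GABAergic-like classes did. With all cells thinned to 3000 UMIs, a Lmo1 UMI was found in 46.8% and 42.3% of immature glutamatergic-like cells, against 3.23% and 5.44% of immature GABAergic-like cells, and the unthinned shares were 83.0% and 67.5% against 19.4% and 9.52% at median depths of 7876 and 7558 against 5641 and 5537 UMIs per cell. In mature glutamatergic-like cells the aliquots differed, with 14.0% and 34.9% of the thinned cells holding a Lmo1 UMI.

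Lmo3, the close relative of Lmo1, had its highest levels in the GABAergic-like classes. It was 62.2 and 49.5 CPM in mature GABAergic-like and 40.9 and 57.6 in immature GABAergic-like cells, and between 17.4 and 35.0 in the other classes. The 2 GABAergic-like classes overlapped each other and lay above the mature glutamatergic-like cells (25.8 and 35.0) in both aliquots, and the remaining 4 classes overlapped their neighbours. The highest of these values rests on 6 UMIs, with an interval of 22.8 to 135.

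Lmo4 was high in both glutamatergic-like classes and in 1 of the GABAergic-like classes. It stood at 352 and 494 CPM in mature glutamatergic-like cells, 263 and 446 in immature GABAergic-like and 278 and 255 in immature glutamatergic-like cells. Cycling radial glia-like cells had 126 and 202, mature GABAergic-like cells 62.2 and 99.0 and radial glia-like cells 48.6 and 75.1. The first 3 classes overlapped as neighbours and lay above the cycling cells in both aliquots, and mature GABAergic-like cells, led by Sst, Maf, Nxph1 and Npy of interneurons, overlapped the radial glia-like cells at the bottom. The 10 leading genes of immature GABAergic-like cells included Ebf1, Isl1 and Foxp2 of striatal projection neurons, but also Htr3a, a marker of the mature GABAergic-like class. At a clustering resolution of 1.2 the immature GABAergic-like class held 18 and 108 cells. A cluster of 14 and 64 cells led by Htr3a and Cxcl14 was then named mature GABAergic-like. Over all kept cells Lmo4 was 227 (205 to 250) in the 190 cell aliquot and 308 (296 to 320) in the 951 cell aliquot, intervals that do not overlap.

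Ldb1, the widely used LIM domain-binding gene, showed no class that stood apart. Its level ran from 28.4 and 17.3 CPM in radial glia-like cells to 83.0 and 42.9 in mature GABAergic-like cells, and all neighbouring classes overlapped. It was higher in the 190 cell aliquot in all 6 classes, and over all kept cells it was 45.9 (36.5 to 56.9) against 27.7 (24.3 to 31.5).

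Ldb2, its relative, was concentrated in mature glutamatergic-like cells, with 88.5 and 90.2 CPM there. The other classes had 28.4 and 6.91 in radial glia-like, 20.02 and 10.3 in immature glutamatergic-like, 10.4 and 8.25 in mature GABAergic-like, 5.85 and 10.6 in immature GABAergic-like and 12.9 and 1.99 in cycling radial glia-like cells. These 5 classes overlapped as neighbours and rested on 1 to 19 UMIs per aliquot. In thinned cells a Ldb2 UMI was found in 18.6% and 20.6% of mature glutamatergic-like cells and in at most 1 of 20 cells of any other of the 6 classes, with unthinned shares of 44.2% and 44.5% in mature glutamatergic-like cells.

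The clusters within a class differed. Mature glutamatergic-like cells were made of a cluster of 36 and 168 cells led by Nefl, Sla and Lrfn5 and a cluster of 7 and 70 cells led by Crym, Nrp2 and Slit3. Lmo1 was 115 and 134 CPM in the Nefl cluster against 376 and 426 in the Crym cluster, whereas Ldb2 was 108 and 116 against 9.39 and 39.8. Ldb2 was itself among the 10 leading genes of the Nefl cluster, although it did not enter the clustering. Lmo4 was 314 and 451 against 507 and 578. Immature glutamatergic-like cells were made of a cluster of 26 and 115 cells led by Hs6st2 and a cluster of 21 and 119 cells led by Unc5d, and Lmo1 was 183 and 193 in the former and 412 and 299 in the latter.

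Class comparisons were read against all 9891 genes with at least 50 Illumina UMIs. A gene was called apart where its level, as CPM plus 10, differed at least 2-fold in the same direction in both aliquots, and ratios are log2 values on that scale. Of the 30 pairs of a member and a comparison, 10 were apart, and comparisons that share a class share its values. Of all genes, between 0.718% and 8.05% were apart per comparison and direction. The 10 CPM added make a call harder for genes with few UMIs. The members had 313 (Ldb1) to 2962 (Lmo4) UMIs, and the shares among genes at their level were not taken.

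**Figure D2:**
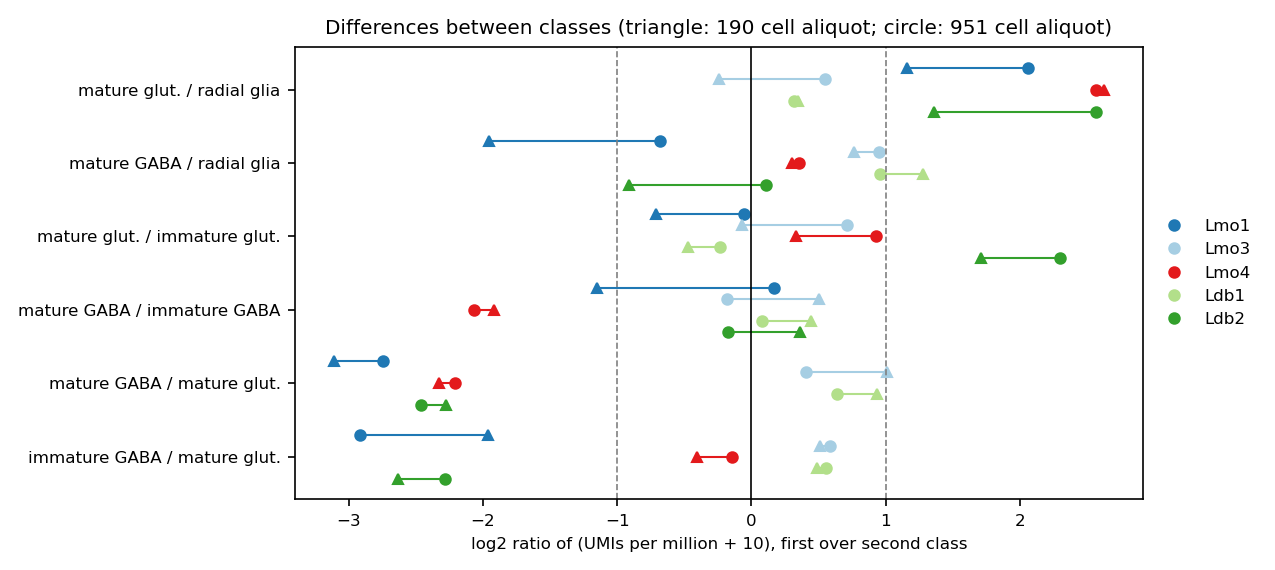
Log2 ratio of CPM plus 10 between 2 classes (x axis) for each member in the 6 comparisons, with triangles for the 190 and circles for the 951 cell aliquot and dashed lines at a 2-fold difference. Lmo1 and Ldb2 lay below -1 in both aliquots in both GABAergic-like classes against mature glutamatergic-like cells, and Lmo3 and Ldb1 crossed neither line in both aliquots in any comparison.

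Mature glutamatergic-like against radial glia-like cells had 3 of 5 members apart and higher, where 6.78% of all genes were higher and 6.69% lower. Lmo4 stood at log2 2.63 and 2.57, Ldb2 at 1.36 and 2.57 and Lmo1 at 1.16 and 2.06, while Lmo3 (-0.24 and 0.55) and Ldb1 were not apart. The Lmo1 call was lost when cells were thinned (mean log2 ratio 1.01), at a clustering resolution of 0.5 (0.91) and without the shared barcodes (1.52). These calls are for the class as a whole. Within mature glutamatergic-like cells, Lmo1 was lower in the Nefl cluster and Ldb2 lower in the Crym cluster.

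Mature GABAergic-like against radial glia-like cells had 0 of 5 members apart, where 6.8% of all genes were higher and 8.05% lower. Lmo1 was at -1.95 and -0.68 and Ldb1 at 1.28 and 0.96. The Ldb1 values fell just short of the 2-fold mark in the 951 cell aliquot, and Ldb1 was apart with all barcodes, with a pseudocount of 1 and in the 190 cell aliquot alone.

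The classes named mature and immature were compared for glutamatergic-like and for GABAergic-like cells. Ldb2 alone was apart between mature and immature glutamatergic-like cells, higher by 1.71 and 2.30 (1 of 5 members, with 1.28% of all genes higher and 0.718% lower). Lmo4 was 0.33 and 0.93 there on Illumina UMIs and was apart on Nanopore UMIs, at 324 and 434 CPM in mature against 127 and 148 in immature cells and a mean ratio of 1.39. The isoform-assigned part differed too, with 187 Nanopore against 580 Illumina UMIs in immature and 789 against 1533 in mature cells. What this adds to the Nanopore ratio was not tested. The GABAergic-like classes hold different kinds of cells by their leading genes, with Isl1 at 129 and 221 CPM in the immature and 0 and 3.30 in the mature class, and Lhx6 at 0 and 5.88 against 156 and 69.3. Between them Lmo4 alone was apart, lower in the mature class, at -1.92 and -2.06 (1 of 5 members, with 1.26% of all genes higher and 0.89% lower).

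Between the neuron classes, mature GABAergic-like cells had 3 of 5 members lower than mature glutamatergic-like cells, where 1.83% of all genes were higher and 2.91% lower. Lmo1 was at -3.11 and -2.74, Ldb2 at -2.27 and -2.46 and Lmo4 at -2.33 and -2.21. Immature GABAergic-like cells had 2 of 5 lower, where 1.35% of all genes were higher and 2.72% lower, with Lmo1 at -1.96 and -2.91 and Ldb2 at -2.64 and -2.28. Lmo4 was not apart in that comparison.

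The partners of these proteins were taken from lists of genes known to act with them. Of 12 LIM-homeodomain genes 6 had enough UMIs. Lhx2, a factor of cortical progenitors, was lower in mature glutamatergic-like than in radial glia-like cells (mean log2 ratio -1.16), lower than in immature glutamatergic-like cells (-1.30) and lower in mature GABAergic-like than in radial glia-like cells (-4.30). Lhx6, the factor of interneurons from the medial ganglionic eminence, was at 156 and 69.3 CPM in mature GABAergic-like cells and 3.18 above immature GABAergic-like cells, and Isl1, a factor of striatal neurons, was at 129 and 221 in immature GABAergic-like cells and 3.96 above mature glutamatergic-like cells. Thus, against mature glutamatergic-like cells, 1 LIM-homeodomain gene was higher and 2 were lower in each GABAergic-like class, where Lhx2 (-3.15 and -2.92 in mature and immature) and Lhx9 (-1.62 and -1.47) were the lower ones.

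Ssbp2, of the 3 Ssbp genes the single one apart in any comparison, was higher in mature glutamatergic-like cells than in radial glia-like cells (1.39) and than in immature glutamatergic-like cells (1.37). The E protein gene Tcf3 was lower in mature glutamatergic-like and mature GABAergic-like than in radial glia-like cells (-1.34 and -1.51), and Tcf12 was higher in mature GABAergic-like cells than in radial glia-like (1.53) and mature glutamatergic-like cells (1.78 and 2.57 in the aliquots). Of the 2 other LMO4 partners, Rbbp8 was lower in mature GABAergic-like than in radial glia-like cells (-1.18) and the other was apart in no comparison. None of the 5 Tal and Gata genes, the partners of LMO proteins in blood cells, reached 50 UMIs, nor did Lmo2.

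Of the 5 subcerebral and corticothalamic neuron genes, 4 were higher in mature glutamatergic-like than in radial glia-like cells, where 6.78% of all genes were higher. Of the 4 callosal neuron genes with enough UMIs, 2 were higher there as well and 0 lower. Against immature glutamatergic-like cells, the subcerebral genes Fezf2 (1.49) and Crym (3.51) were higher in mature ones and Tbr1 was lower (-1.09), and the callosal genes Cux1 (-1.74) and Cux2 (-1.66) were lower. The median of the subcerebral list was 0.89, where the median of all genes was -0.04. Crym, in this list, was also a marker that named the mature glutamatergic-like class, so its excess there was partly set by the naming.

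Within mature glutamatergic-like cells, the cells with and without a UMI of a subtype gene were compared after thinning to 3000 UMIs. Lmo1 was at 240 CPM (188 to 302) in the 100 cells with Bcl11b, a subcerebral neuron gene, against 127 (98.9 to 161) in the 181 without it, and the log2 ratios were 1.06 and 0.88 in the aliquots. Splits by other genes of the same list went otherwise, with Lmo1 ratios of -0.40 and 0.90 for Fezf2 and -0.70 and -0.05 for Tbr1. Lmo4 was at 0.13 and -0.13 for Bcl11b, -0.01 and -0.12 for Fezf2 and 0.35 and -1.47 for Tbr1. The last value stands for 178 CPM in the 30 cells of the 951 cell aliquot with Tbr1 against 511 in the 208 without it, whereas the 190 cell aliquot had 7 cells with Tbr1. In immature GABAergic-like cells the Lmo4 ratio was 1.49 and 0.79 for Six3, a striatal neuron gene, from 71 UMIs in 37 cells with it and 147 UMIs in 141 cells without it. For Ebf1 it was 1.02 and 0.03 and for Isl1 -1.66 and 0.60, with 6 and 4 cells holding these genes in the 190 cell aliquot. A UMI of a marker in a thinned cell is a sparse readout, and these splits carry no test.

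Few cells showed an LMO and an LDB gene together at this depth. Among all thinned cells 666 had a UMI of an Lmo member, 171 a UMI of an Ldb member and 112 both, which were 16.8% of the cells with an Lmo UMI, against 12.97% of the cells without one that had an Ldb UMI. In mature glutamatergic-like cells 54 of 281 had both, and the shares with an Ldb UMI were 25.6% with and 25.7% without an Lmo UMI. Lmo1 and Lmo4 were found together in 60 of 281 mature and 69 of 281 immature glutamatergic-like cells.

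The genes most like each member were ranked by Pearson's r over 12 points, the 6 classes in 2 aliquots, among 2998 genes with at least 500 UMIs. The points share libraries, and classes share lineage, so r is a description. Lmo1 was nearest to Neurod2 (0.97), Neurod6 (0.96), Lix1 (0.95), Zbtb18 (0.94) and Neurod1 (0.93), of which the Neurod genes encode bHLH factors of glutamatergic neurons. Lmo4 was nearest to Nav1 (0.92), Nefm (0.91), Fam96b (0.90), Islr2 (0.88) and Pik3r1 (0.87), and Ldb2 to Lrfn5 (0.91), mt-Nd2 (0.89), Prkce (0.88), Atp2b1 (0.87) and Crym (0.87). Among the genes nearest to Lmo3 were Cox20 (0.88), Meg3 (0.82), Rgs2 (0.81) and Zwint (0.80), and Ldb1 was nearest to Epc1 (0.95), Ubqln2 (0.93), Ubn2 (0.91), Slain1 (0.90) and Atp6v1h (0.89). Lmo1 and Lmo3 ran opposite, at -0.76. Neurod1, Neurod2, Lrfn5 and Crym were also among the markers that named the classes. Likeness over classes need not hold within a class, as Ldb2 was lower in the Crym cluster than in the Nefl cluster.

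Nanopore UMIs were assigned to annotated isoforms, which differ in their annotated starts. Lmo4-201 starts 2824 bases upstream of Lmo4-203, they share 3 of their 4 splice junctions, and the coding sequence of 495 bases is the same in both, so they differ in the untranslated first exon. Lmo4-202 starts 64 bases downstream of Lmo4-203, has the same coding sequence and 3 splice junctions that are all found in Lmo4-201 and Lmo4-203 as well, so that a molecule lacking their first exon could match it too. Over all kept cells, of 160 and 1103 Lmo4 UMIs, Lmo4-201 had 95 and 583, Lmo4-203 39 and 345 and Lmo4-202 12 and 86, and the retained-intron isoforms Lmo4-204, Lmo4-205 and Lmo4-206 had between 3 and 40.

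**Figure D3:**
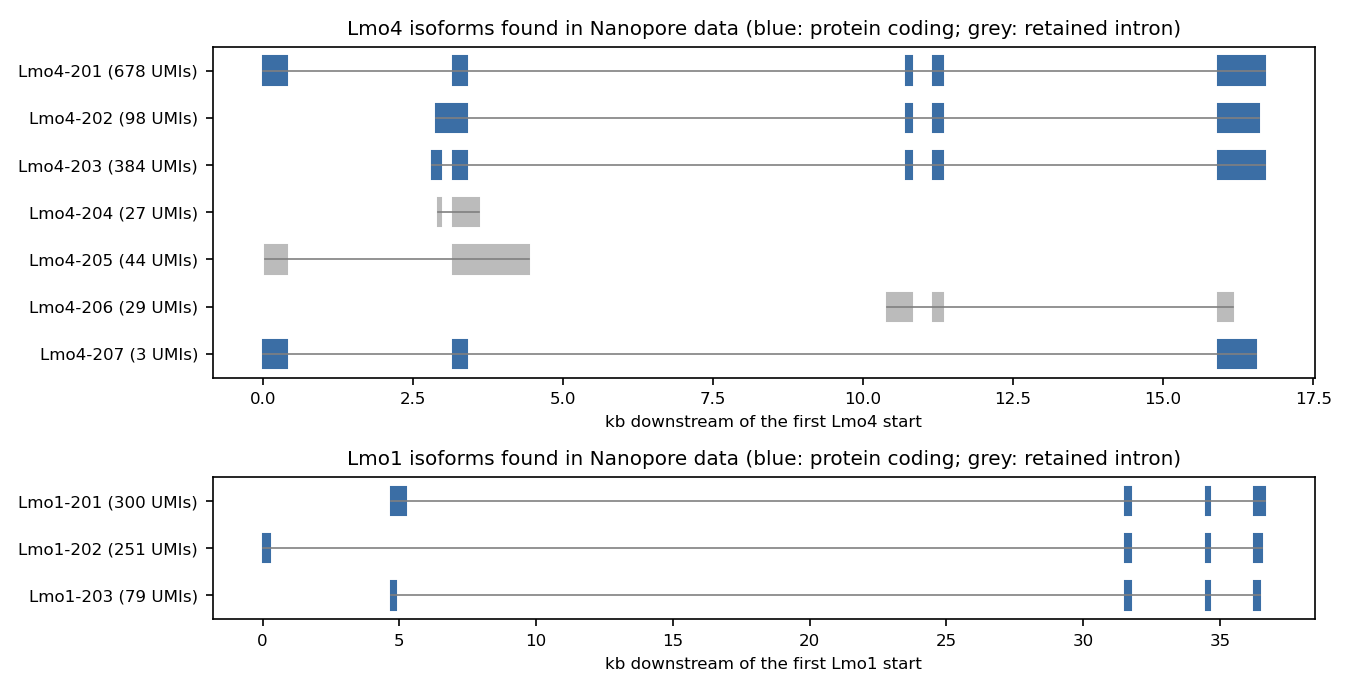
Exons (boxes) and introns (lines) of the Lmo4 and Lmo1 isoforms found, in kilobases downstream of the most upstream start of the gene (x axis), with Nanopore UMIs of both aliquots in brackets. Lmo4-203 and Lmo4-202 start 2.8 kb or more downstream of Lmo4-201, while Lmo1-201 and Lmo1-203 start downstream of Lmo1-202.

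Lmo4-203 took a larger share of the isoform-assigned Lmo4 UMIs in mature than in immature glutamatergic-like cells. It was 2 of 27 UMIs (7.41%) and 19 of 160 (11.9%) in immature glutamatergic-like cells and 33 of 97 (34.0%) and 255 of 692 (36.8%) in mature ones, while Lmo4-201 had 70.4% and 73.1% against 51.5% and 48.99%. The shares of both isoforms did not overlap between the classes. Isoform usage of Lmo4 was called between these classes (gene-level test of edgeR's diffSpliceDGE over the 2 isoforms that passed the count filter, Benjamini-Hochberg adjusted p = 0.00526), where 21 of 605 genes tested (3.47%) were called, and relative to the gene Lmo4-203 was higher by 1.63 on the log2 scale. Lmo4-203 passed the filter through the mature glutamatergic-like sums, where it is high, and not through the immature ones. The call is therefore no support beyond the shares themselves. With the filter dropped, so that all 7 isoforms and 7692 genes entered, the adjusted p in edgeR was 0.538. Over both aliquots, 187 Nanopore UMIs of Lmo4 stood against 580 Illumina UMIs in immature and 789 against 1533 in mature glutamatergic-like cells. The shares cover the isoform-assigned part alone, and what the remaining Lmo4 UMIs would change was not tested.

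Both clusters of each class showed it in the 951 cell aliquot, where the intervals of mature and immature clusters did not overlap. Lmo4-203 was 33.3% and 34.7% of Lmo4 UMIs in the Nefl cluster and 35.5% and 39.7% in the Crym cluster of mature cells. It was 7.14% and 9.20% in the Hs6st2 cluster and 7.69% and 15.1% in the Unc5d cluster of immature cells. In the 190 cell aliquot these immature shares are 1 of 14 and 1 of 13 UMIs. Their intervals, 0.181% to 33.9% and 0.195% to 36.0%, overlap those of the mature clusters, 22.2% to 46.0% and 19.2% to 54.6%. The smaller aliquot therefore cannot decide the comparison by cluster. Starts are those annotated for the matched exon structure, as 5′ ends of molecules were not measured here. Of 131 mature glutamatergic-like cells with at least 2 UMIs of Lmo4-201 and Lmo4-203, 84 had both, 39 only Lmo4-201 and 8 only Lmo4-203, and of 35 such immature cells 8 had both, 24 only Lmo4-201 and 3 only Lmo4-203.

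**Figure D4:**
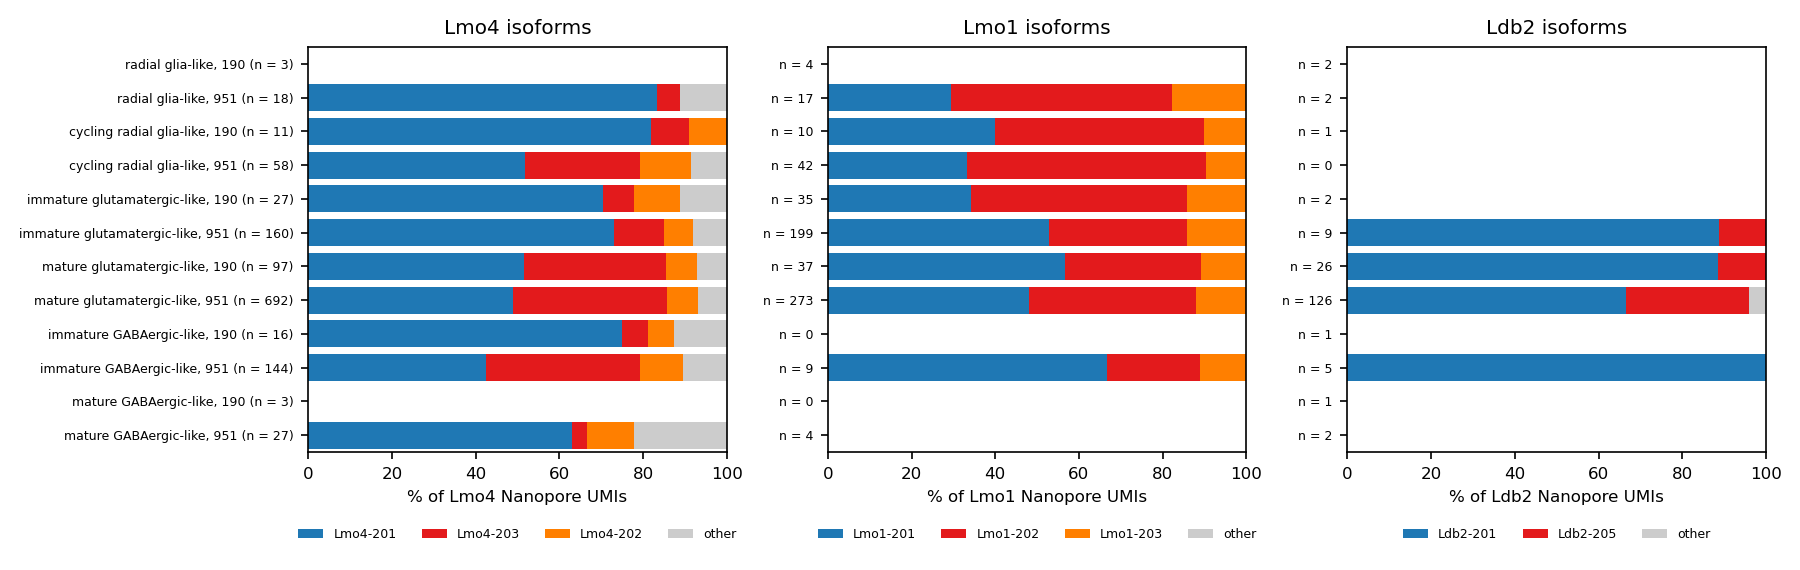
Share of the Nanopore UMIs of Lmo4, Lmo1 and Ldb2 (x axis, percent) taken by each isoform, by class and aliquot, with the number of UMIs as n and no bar for fewer than 5. The Lmo4-203 share was 34.0% and 36.8% in mature glutamatergic-like cells and 7.41% and 11.9% in immature ones.

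In the other classes the Lmo4 shares rested on fewer UMIs. Lmo4-203 had 1 of 16 UMIs (6.25%) and 53 of 144 (36.8%) in immature GABAergic-like cells, where the aliquots are far apart, 0 of 3 and 1 of 27 in mature GABAergic-like cells, 1 of 11 and 16 of 58 in cycling cells and 1 of 3 and 1 of 18 in radial glia-like cells. No other comparison passed for Lmo4 in edgeR's diffSpliceDGE: the adjusted p was 0.0987 for mature glutamatergic-like against radial glia-like cells (18.8% of genes called), 0.127 for mature GABAergic-like against mature glutamatergic-like (2.15%) and 0.203 for mature against immature GABAergic-like cells (0.992%). It was 0.734 for mature GABAergic-like against radial glia-like (14.4%) and 0.901 for immature GABAergic-like against mature glutamatergic-like cells (6.12%). With the aliquot as a block, the first 3 of these had adjusted p values of 0.0260, 0.0120 and 0.0351 in edgeR. The blocked fit called 28.3%, 3.47% and 2.48% of the 605 genes there. These 3 passes keep the count filter, which Lmo4-203 passed through the mature glutamatergic-like sums, where it is high. They are therefore no support beyond the shares themselves. With the filter dropped, Lmo4 was called in none of the 3 comparisons, and the first had an adjusted p of 0.536 in edgeR. The other Lmo4 comparisons kept their side of the threshold with the block, which called 10.2% of genes for mature against immature glutamatergic-like cells, 19.3% for mature GABAergic-like against radial glia-like and 10.6% for immature GABAergic-like against mature glutamatergic-like cells.

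Lmo1 was split between isoforms with annotated starts 4688 bases apart. Lmo1-201, the downstream one, had 37 of 86 and 263 of 544 UMIs (43.0% and 48.3%), Lmo1-202 39 and 212 (45.3% and 39.0%), and Lmo1-203, which starts beside Lmo1-201, the other 10 and 69. Lmo1-201 was 34.3% and 52.8% in immature and 56.8% and 48.0% in mature glutamatergic-like cells, which overlap, and 0 of 4 and 5 of 17 in the radial glia-like class. Lmo1-202, upstream, had 4 of 4 and 9 of 17 UMIs there and 5 of 10 and 24 of 42 in cycling cells. No comparison passed for Lmo1 (adjusted p from 0.121 to 0.937 in edgeR's diffSpliceDGE), and the lowest was that of mature glutamatergic-like against radial glia-like cells.

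Ldb2, Lmo3 and Ldb1 had too few isoforms past the count filter for the test. Ldb2-201 made up 23 of 26 and 84 of 126 Ldb2 UMIs in mature glutamatergic-like cells, and Ldb2-205, which lacks the 6 bases printed above, 3 of 26 (11.5%) and 37 of 126 (29.4%). The interval of the smaller aliquot, 2.45% to 30.2%, takes in the share of the larger. Lmo3-206 had 17 of 26 and 70 of 121 Lmo3 UMIs and Lmo3-202 6 and 34, with the same coding sequence of 435 bases in both. The 3 splice junctions of Lmo3-206 are all found in Lmo3-202, so that a molecule lacking the first exon of Lmo3-202 could match Lmo3-206 too. Lmo3-206 was 30 of 41 UMIs in mature glutamatergic-like cells of the 951 cell aliquot and 6 of 18 in its cycling cells. The 190 cell aliquot held 6 Nanopore UMIs of Lmo3 in each of these classes, and the difference was not tested. No class held 20 Nanopore UMIs of Ldb1, whose isoforms are therefore named outside the rule for naming isoforms. Over all kept cells Ldb1-206 had 5 and 32 UMIs, Ldb1-202 9 and 17 and Ldb1-205 1 and 11, and Ldb1-206 starts 5593 bases upstream of Ldb1-202.

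Among the 5 members the platforms differed most for Ldb1, whose ratio lay at percentile 23.7 of all genes tested. Of its 83 and 230 Illumina UMIs, the isoform-assigned Nanopore counts held 16 and 60, so that it was at 44.8 and 27.3 against 16.8 and 13.5 CPM after TMM scaling. The log2 ratio of Nanopore over Illumina was -1.25 ± 0.31 (SE derived from the F value of the fit without pairing, n = 2 libraries per platform, edgeR quasi-likelihood test, Benjamini-Hochberg adjusted p = 0.0189), and 1 of 5 members was called, where 30.3% of 9855 genes were lower in Nanopore and 20.2% higher. The other ratios were -0.44 ± 0.16 for Lmo1 (edgeR adjusted p = 0.0590), -0.32 ± 0.22 for Lmo4 (0.280), -0.16 ± 0.15 for Lmo3 (0.415) and -0.10 ± 0.15 for Ldb2 (0.628). As both platforms read the same cells, the aliquot pairs the libraries, and with the aliquot as a block Lmo1 (-0.37, edgeR adjusted p = 0.00102) and Lmo4 (-0.31, 0.000200) were called lower as well, so that 3 of 5 members were called, where the blocked fit called 37.9% of genes lower and 32.9% higher. Counting both directions, the members were called no more often than genes in general in either fit. All 3 members called with the block were lower in Nanopore. Whether this exceeds the 37.9% of genes called lower was not tested. UMIs that matched no annotated isoform are not in the Nanopore counts, and their part in the difference was not tested. The authors assigned Nanopore barcodes and UMIs by matching them to those in the Illumina data. The Nanopore counts therefore depend on the Illumina counts and are no separate check of the levels.

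**Figure D5:**
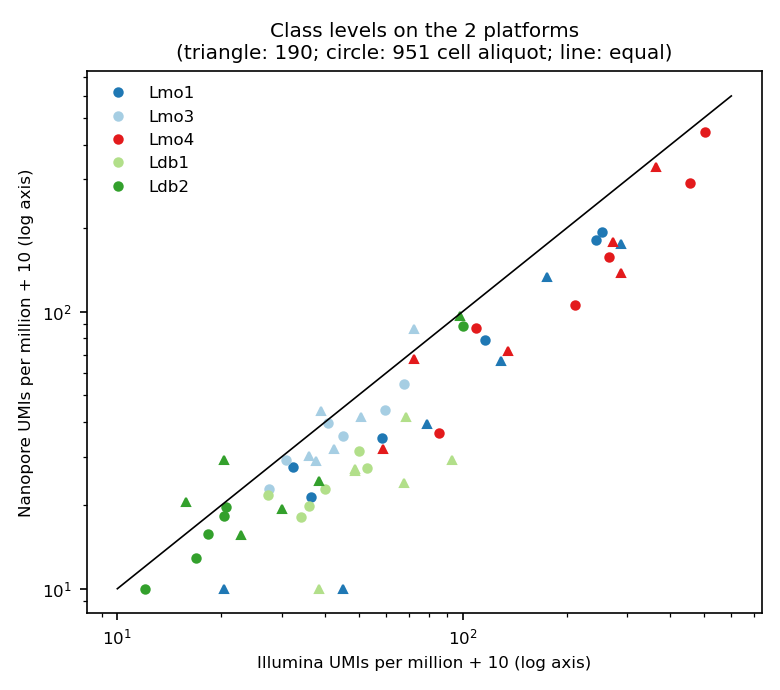
Nanopore against Illumina level of each member (both axes log, CPM plus 10), with 1 point per class and aliquot, triangles for the 190 and circles for the 951 cell aliquot. All 12 points of Ldb1, Lmo1 and Lmo4 and 10 of 12 points of Lmo3 and of Ldb2 lie below the line of equal levels.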

How the data were processed

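Single cells from 1 E18 mouse brain suspension were measured as 4 libraries, 2 platforms by 2 aliquots. Per the labels and methods, the authors made the deposited Illumina UMI counts per gene with Cell Ranger 2.0 on mm10 (GRCm38), and the deposited Nanopore UMI counts per Gencode isoform from minimap2 alignments, with 1 consensus per UMI and no normalization. Only UMIs matching the whole exon structure of an isoform, with 2 bases of tolerance, were counted. Per the paper, a Nanopore read was given a UMI by matching those that Illumina found for its cell and its gene or genomic region.

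Cells with at least 1400 genes were clustered with Seurat 5.3.0 (canonical correlation integration, 2000 variable genes without the members and list genes, 11 dimensions, resolution 0.8) and classes named from marker lists. The rule that a class needs 3 raised markers, and the topping up to 2000 genes, were chosen once clusters were known. Doublets called by Scrublet (scanpy 1.11.5), 3 and 4 cells, were kept. Median depth per cell was 8048.5 and 7551 Illumina UMIs and 4394 and 4487 Nanopore UMIs. Cells were not used as replicates. Platforms were compared on summed counts with edgeR 4.0.16 (TMM, filterByExpr, quasi-likelihood F test), and isoform usage with diffSpliceDGE on sums per class and aliquot in 1 fit of 6 classes, p adjusted over all genes by Benjamini-Hochberg. Both were tested on simulated data. Genes were joined by symbol (12561 in both matrices), and all 22 isoforms matched Gencode vM21 by versioned ID. The members, lists and comparisons were chosen with earlier results of these data known. The named genes were the members, isoforms with at least 5% of a member's UMIs in a class with 20 or more, the 5 most similar genes and list genes apart in a comparison. Results that need some of these genes are not reported here.

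The aliquot number paired the platforms, which read the same cells: the difference between aliquots correlated between Illumina and Nanopore at r = 0.60 over 9855 genes. Between classes, which are different cells, it correlated at 0.04 to 0.17 over 5197 isoforms. Alternatives were other size factors, DESeq2 1.42.0, no filter, the aliquot as a block, all barcodes, no doublets, other resolutions, clustering with all variable genes, thinning, a pseudocount of 1, 1 aliquot alone and, chosen after seeing the data, no shared barcodes.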

Additional observations from a re-analysis of the deposited data

Results flagged for a closer look

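Lmo4 levels differed in opposite directions between the classes named mature and immature. The log2 ratio of mature over immature was 0.33 and 0.93 in glutamatergic-like and -1.92 and -2.06 in GABAergic-like cells, a difference of means of 2.62. The immature GABAergic-like cluster was led by Ebf1 and Isl1 and the mature one by Sst and Maf, so this comparison is between different kinds of cells.

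The Lmo4-203 share, mature minus immature in the same classes, was 26.6 and 25.0 percentage points in glutamatergic-like and -6.25 and -33.1 in GABAergic-like cells, a difference of means of 45.5 points. The GABAergic-like values rest on 16 and 3 Lmo4 UMIs in the 190 cell aliquot.

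Lmo1 against radial glia-like cells was 1.16 and 2.06 in mature glutamatergic-like and -1.95 and -0.68 in mature GABAergic-like cells, a difference of means of 2.93, which rests on 1 Lmo1 UMI in the mature GABAergic-like cells of the 190 cell aliquot.

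Ldb1, mature against immature, was -0.47 and -0.23 in glutamatergic-like and 0.44 and 0.08 in GABAergic-like cells, a difference of means of -0.61. None of these 4 differences was itself tested, and with 2 aliquots a group the signs alone carry little weight.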

How the results depend on the processing

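Of the 30 pairs of a member and a comparison, 10 were apart, and 9 to 12 under every alternative with both aliquots. With the 951 cell aliquot alone the number was 10, with the 190 cell aliquot alone 14. Shares of all genes apart, 0.718% to 8.05% per comparison and direction, were taken in the main setting alone. The calls gained without the 951 cell aliquot were among pairs with few UMIs, such as Lmo3 in mature GABAergic-like against mature glutamatergic-like cells. Of the recomputed ratios 284 moved by less than the spread between aliquots and 76 by more, and no call reversed.

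With the replicate block, genes called for isoform usage rose to 62 for mature against immature glutamatergic-like cells, 15 for mature against immature GABAergic-like, 21 for mature GABAergic-like against mature glutamatergic-like and 64 for immature GABAergic-like against mature glutamatergic-like cells. The Lmo4 call between mature and immature glutamatergic-like cells held with the block (adjusted p = 8.95e-08 in edgeR) and in the other alternatives with the filter (0.00344 to 0.0155). All of these keep the count filter, and the edgeR fit without it gave an adjusted p of 0.538. The block also moved Lmo4 past the threshold in 3 other comparisons of isoform usage. So did leaving out doublets (edgeR adjusted p = 0.0479) or resolution 0.5 (0.0362) for mature glutamatergic-like against radial glia-like cells. Resolution 1.2 did so for mature GABAergic-like against mature glutamatergic-like cells (edgeR adjusted p = 0.0423). These passes keep the count filter too, and are no support beyond the shares. Without it Lmo4 was called in none of these comparisons, with an edgeR adjusted p of 0.536 for mature glutamatergic-like against radial glia-like cells.

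Without a filter on low counts 7692 genes were tested, against 605 with it, so the counts do not compare directly. Of the 7692, 195 were called for mature glutamatergic-like against radial glia-like cells and 3 for mature against immature glutamatergic-like cells. The count was 7 for mature GABAergic-like and 11 for immature GABAergic-like against mature glutamatergic-like cells. For mature against immature GABAergic-like cells edgeR called 0, with 117 genes at an unadjusted p under 0.05. At resolution 0.5 and with all variable genes, 13 genes were called for mature against immature glutamatergic-like cells, of 600 and 453 tested. For mature GABAergic-like against mature glutamatergic-like cells 20 of 636 were called at resolution 1.2 and 7 of 453 with all variable genes.

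Resolution 1.2 reversed the Lmo4-203 share of immature GABAergic-like against mature glutamatergic-like cells (0.442 percentage points, edgeR adjusted p = 0.844) and the Lmo1-201 share of mature GABAergic-like against mature glutamatergic-like cells (-5.86, 0.923), neither of which was called. DESeq2 called 3071 genes between platforms against 4976, and Ldb1 stayed lower under every alternative, with adjusted p from 0.00721 to 0.0253 without the block in edgeR and DESeq2. Without the 951 cell aliquot the ratios were -1.32 for Ldb1 and -0.62 for Lmo1. Platform fits with 1 aliquot leave no residual degrees of freedom, so these are values without a test. The cause of these changes was not tested. Isoform shares of Lmo4 rest on 3 Nanopore UMIs in each of 2 classes of the 190 cell aliquot, mature GABAergic-like and radial glia-like.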

Other observations

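Cajal-Retzius-like cells, 4 and 12 in number, had 6 and 12 Lmo4 UMIs, 2 and 4 Ldb1 UMIs and 2 and 1 Lmo1 UMIs, and 0 of Lmo3 and Ldb2. At resolution 1.2 a cluster of 17 and 70 cells was led by the immune genes Ccl4 and Ccl3. Its 10 leading genes also held C1qa, C1qb, C1qc and Tyrobp, of which C1qb and Tyrobp are among the microglial markers used here. Eomes and Neurog2 were among the 10 as well, and the marker rule named the cluster intermediate progenitor-like, with 8 of 8 markers raised. It was not among the 6 classes compared. Lmo1 was at 138 and 162 CPM in it and Lmo4 at 138 and 164.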
